A study of Mus musculus with 28 samples.

Results

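Solute carrier (SLC) genes encode the membrane transporters that carry amino acids, sugars, ions, metals, vitamins, nucleosides and mitochondrial metabolites, and their RNA levels were followed here in mouse dorsal skin with and without a keratinocyte deletion of Gab1. Members were all probes whose platform symbol begins with Slc, a family number, the letter a and a member number. The array held 440 such probes for 301 genes, and 203 probes for 163 genes passed the detection filter, a detection p below 0.01 on at least 6 of the 28 arrays. Of these 163 genes, 91 were detected on all 28 arrays and 147 on at least 1 array of every group, and the other 138 SLC genes had no tested probe. The symbol rule also took in 4 tested genes that encode no transporter, namely Slc9a3r1 and Slc9a3r2, which encode scaffold proteins, Slc7a6os, a gene on the strand opposite Slc7a6, and Slc4a1ap, which encodes an adaptor. Gab1 encodes an adaptor protein that couples receptor tyrosine kinases to downstream signalling. Mutant mice carried a conditional Gab1 allele (Gab1fl) and the K14-cre transgene, whose keratin 14 promoter is active in basal keratinocytes of epidermis and hair follicle, so that cells of the dermis, fat and blood keep Gab1. The labels call the other mice controls and do not give their Cre or Gab1 alleles. All mice had the strain background C57/BL6;129Ola mixed. Total RNA of whole skin came from 10 controls and 6 mutants at an age of 10 days (P10) and from 6 controls and 6 mutants at 15 days (P15). In such bulk samples fewer cells of a type and less RNA per cell cannot be told apart, and since the labels do not say that each replicate is a separate animal, p-values measure only the spread between these samples, which may be technical.

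SLC proteins move their substrates down a gradient or against it, in the second case by coupling to the flow of sodium, protons, chloride or a second solute. Several light chains of the Slc7 family reach the cell surface with the heavy chain that Slc3a2 encodes, and most Slc25 carriers sit in the inner membrane of mitochondria. In skin, transporters supply dividing keratinocytes of the growing hair follicle with glucose and amino acids, import cystine for glutathione, build the lipid barrier (Slc27a4) and set the pH and substrate supply of pigment granules (Slc45a2 and Slc24a5).

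A set of 14 SLC genes was lower in mutants at both ages, and 11 of these have an entry in the RefSeq promoter table (build GRCm38.p6), as have 127 of the 163 tested genes. The 250 bases before the transcription start are shown for Slc7a11, Slc1a1 and Slc23a3, the 3 with the largest falls at P10, to set side by side the promoters of members that fell together. Capitals mark matches, on either strand, to 1 of the 4 motifs searched. These were the amino acid response element (TGATGCAA or its complement TTGCATCA), the AP-1 site (TGANTCA), the GC box (GGGCGG or CCGCCC) and the E-box (CACGTG), and the motifs overlap in none of the matches shown.
Slc7a11, minus strand of chr3:50443614-50443863: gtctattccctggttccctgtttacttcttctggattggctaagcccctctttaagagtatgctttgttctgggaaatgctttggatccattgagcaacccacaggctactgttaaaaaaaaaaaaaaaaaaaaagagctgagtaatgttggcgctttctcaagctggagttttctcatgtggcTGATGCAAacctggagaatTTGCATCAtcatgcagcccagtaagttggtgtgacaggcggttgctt
Slc1a1, plus strand of chr19:28834885-28835134: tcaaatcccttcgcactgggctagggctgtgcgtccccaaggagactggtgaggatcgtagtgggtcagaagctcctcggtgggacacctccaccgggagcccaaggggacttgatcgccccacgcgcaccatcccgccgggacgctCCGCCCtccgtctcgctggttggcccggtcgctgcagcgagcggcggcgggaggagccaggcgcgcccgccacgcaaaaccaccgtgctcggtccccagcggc
Slc23a3, minus strand of chr1:75133891-75134140: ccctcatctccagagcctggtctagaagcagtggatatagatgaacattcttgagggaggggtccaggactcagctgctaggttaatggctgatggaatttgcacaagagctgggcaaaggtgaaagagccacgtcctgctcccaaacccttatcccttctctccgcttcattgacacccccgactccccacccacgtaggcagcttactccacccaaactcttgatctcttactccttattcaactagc
The Slc7a11 window held 2 matches to the amino acid response element in opposite orientation, at 66 to 59 and at 47 to 40 bases before the start. That element occurs in 0.791% of the 32851 windows of the same length in the table. Slc1a1 held 1 GC box, at 103 to 98 bases before the start, a motif present in 32.7% of all windows. Slc23a3 held no match to the 4 motifs, and the AP-1 site and the E-box, found in 6.75% and 6.02% of all windows, were in none of the 3 sequences. The GC box lay in 149 of all 268 SLC genes in that table. Among the 11 genes lower at both ages with an entry it occurred in 6 (Slc1a1, Slc1a3, Slc25a45, Slc29a1, Slc39a11 and Slc7a8), the E-box in Slc29a1, and the response element in Slc7a11. A match describes letters only and shows no binding.

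Signals are given as normalized log2 values, differences as log2 values with their standard error (SE), and a gene counts as changed where the Benjamini-Hochberg adjusted p of the limma fit over all 9045 tested genes was below 0.05. Each gene is represented by its tested probe with the highest mean signal. Of the 4 slides, slides 1 and 2 carried all P10 mutants and 6 of the P10 controls, while slides 3 and 4 carried every P15 array and 4 P10 controls. The P10 difference rests on slides 1 and 2 and the P15 difference and the age change rest on slides 3 and 4. A change of the mutant effect between ages is therefore also a change between slide pairs, and the 2 cannot be told apart. Mutants and controls took different positions on every slide, so position and genotype cannot be told apart. Gab1 was lower by 1.31 ± 0.11 (SE) at P10 (adjusted p = 1.48e-08) and by 1.33 ± 0.11 at P15 (adjusted p = 2.20e-09), and in both comparisons the mutant and control arrays did not overlap. Between 8836 and 13610 probes were detected per array, and P15 mutant replicate 5 stood apart with the fewest detected probes and the highest median raw signal (172, against 53.2 on the dimmest array). All 12 tested markers of basal and suprabasal keratinocytes missed the threshold at P10, and 2 were lower at P15. The number of arrays limits the precision of every value.

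At P10, 34 of the 163 SLC genes (20.9%) differed between mutants and controls, 10 of them higher and 24 lower, beside 18.7% of all 9045 tested genes, of which 9.39% were higher and 9.26% lower. At P15, 36 SLC genes (22.1%) differed, 9 higher and 27 lower, beside 19.6% of all genes, with 9.53% higher and 10.1% lower. With arrays scaled to a common median in place of quantile normalization, the P15 split was 11 higher and 16 lower, and the calls of Slc25a28, Slc29a1, Slc29a3 and Slc25a10 at P10 and of Slc7a8, Slc10a6, Slc34a2, Slc41a2, Slc45a3 and Slc66a2 at P15 were lost. In a fit that adjusts for muscle marker level, the calls of Slc7a8, Slc25a10, Slc26a4, Slc29a1 and Slc41a3 at P10 (adjusted p 0.0634 to 0.347) and of Slc19a1 and Slc66a2 at P15 (0.0988 and 0.0847) were lost. Other calls were gained there, such as Slc3a2 at P10 (adjusted p = 0.0379) and Slc39a10 (0.0058) and Slc25a42 (0.0274) at P15. Its split was 8 higher and 21 lower at P10, and 10 higher and 29 lower at P15. The share of SLC genes that changed was near the background at both ages, while their direction leaned to lower values. At P10, 8 of 10 fibroblast, 7 of 9 fat cell and 3 of 4 macrophage markers were higher in mutants and 0 were lower. At P15, 2 fibroblast markers were higher and 1 lower, 2 fat cell markers were lower and 3 macrophage markers were higher. The part of these markers in the direction of SLC genes was not tested. The median difference was -0.10 over SLC genes and -0.01 over all genes at P10, and -0.06 against 0.02 at P15. Mutant and control arrays did not overlap for 3 higher and 19 lower SLC genes at P10, where 3.32% and 6% of all genes separated in these directions, and for 3 higher and 12 lower SLC genes at P15, where the background was 2.65% and 4.18%. Across both ages, 16 SLC genes changed at both, 18 at P10 alone, 20 at P15 alone and 109 at neither. Of the 16, 14 were lower at both ages, beside 4.78% of all genes, and 2 were higher at both, beside 2.37%, and 0 changed in opposite directions.

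**Figure D1:**
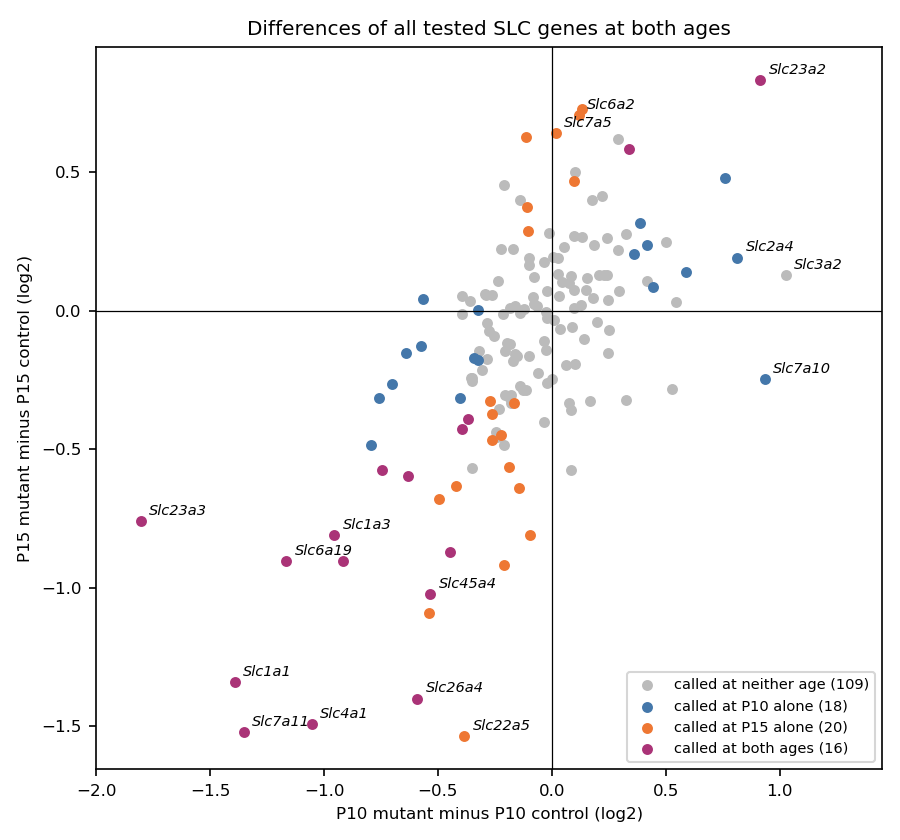
Log2 difference of mutant minus control at P10 (horizontal axis) and at P15 (vertical axis) for the 163 tested SLC genes, 1 point a gene, coloured by the age at which the difference passed the test. The 16 genes called at both ages lie in the lower left quadrant, except Slc23a2 and Slc25a28 in the upper right, and Slc7a10 and Slc2a4 lie far to the right with small differences at P15.

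Amino acid transporters formed the class with the most lowered genes by count. Of 27 tested members, 6 were lower and 1 higher at P10 (25.9% called, beside 18.7% of all genes). At P15, 8 were lower and 1 higher (33.3%, beside 19.6%), and the median difference was -0.21 at P10 and -0.15 at P15. Some smaller classes had a larger lowered share, such as nucleoside genes at P10 (2 of 4) and unclassified genes at P15 (2 of 2). Slc1a1, Slc1a3, Slc6a19, Slc7a8 and Slc7a11 fell at both ages, whereas Slc7a5 rose at P15 and Slc7a10 at P10.

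Slc1a1 encodes a sodium-coupled carrier of glutamate, aspartate and cysteine. At P10 its signal was 6.61, 6.83 and 6.90 (lowest, median and highest of 6 mutants) against 7.87, 8.21 and 8.47 in the 6 controls of slides 1 and 2. At P15 it was 8.26, 8.70 and 8.97 in mutants against 9.87, 9.97 and 10.17 in controls. Every mutant array lay below every control array at both ages, and the P15 controls were the highest group. The differences were -1.39 ± 0.12 (SE, adjusted p = 2.09e-08) at P10 and -1.34 ± 0.12 (adjusted p = 1.07e-08) at P15, about 2.63-fold and 2.53-fold lower. The effect differed between the ages by 0.05, with a 95% interval from -0.30 to 0.41. A second Slc1a1 probe, detected on 19 arrays, was also lower, by 0.64 and 1.42, each past the test.

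Slc7a11 encodes the cystine and glutamate exchanger light chain that feeds glutathione synthesis. The window before its start held the 2 letter matches to the response element printed above, which show no binding. P10 mutants gave 6.99, 7.14 and 7.64 against 8.23, 8.54 and 9.13 in their slide's controls. P15 mutants gave 7.25, 8.47 and 8.67 against 9.56, 9.74 and 9.96. The groups were apart at both ages, and the lowest P15 mutant lay well below the other mutants' median. Falls of 1.35 ± 0.20 (adjusted p = 3.16e-05) and 1.52 ± 0.20 (adjusted p = 3.55e-06) correspond to 2.55-fold and 2.87-fold lower signals.

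Slc6a19 encodes a neutral amino acid transporter best known from gut and kidney. Its P10 mutants (7.14, 7.41 and 7.72) lay below the controls (8.25, 8.64 and 8.72), and so did the P15 mutants (7.82, 8.80 and 9.23) below theirs (9.41, 9.60 and 10.01). It fell by 1.17 ± 0.16 at P10 (adjusted p = 1.91e-05) and by 0.90 ± 0.16 at P15 (adjusted p = 0.000252). Slc1a3, the glial-type glutamate and aspartate transporter, showed the same order of groups. Its signal was 9.54, 9.77 and 10.04 in P10 mutants against 10.44, 10.75 and 11.15, and 10.26, 10.63 and 11.12 in P15 mutants against 11.15, 11.46 and 11.65. The highest P15 mutant came close to the lowest P15 control without reaching it, and the falls were 0.95 ± 0.14 (adjusted p = 4.39e-05) and 0.81 ± 0.14 (adjusted p = 1.78e-04).

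**Figure D2:**
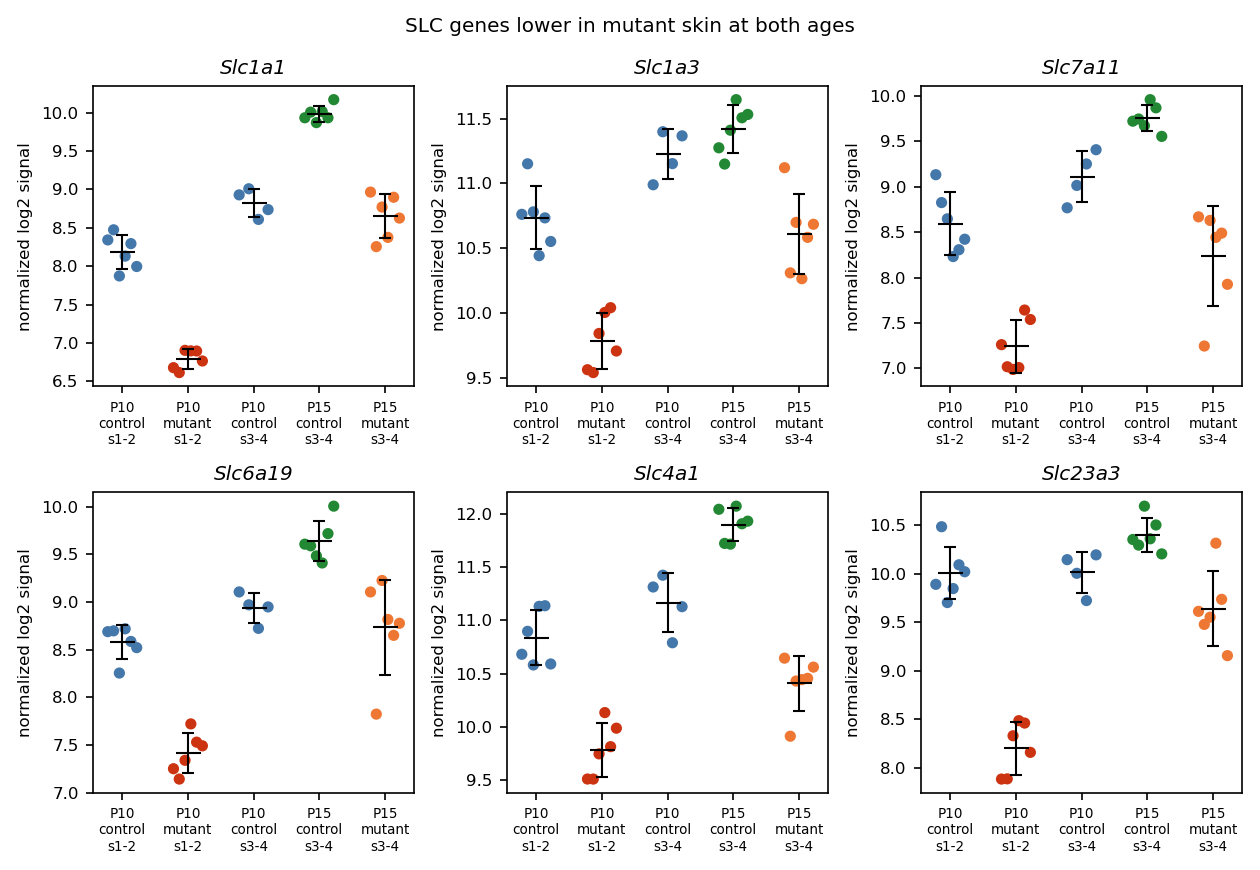
Normalized log2 signal (vertical axis) of 6 SLC genes on each array, by group and slide pair (s1-2 is slides 1 and 2, s3-4 slides 3 and 4), with horizontal bars at the mean and error bars of 1 SD. Filled points were detected above background. In each comparison within a slide pair the mutant arrays lie below the control arrays, except for Slc23a3 at P15, where the highest mutant reached 10.31 and the lowest control 10.20.

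The light chains that pair with Slc3a2 moved in different directions. Slc7a8, a carrier of large neutral amino acids, fell by 0.40 ± 0.11 at P10 (adjusted p = 0.0163) and by 0.43 ± 0.11 at P15 (adjusted p = 0.00863). Slc7a6, which exchanges cationic for neutral amino acids, was not called at P10 (-0.21 ± 0.19, adjusted p = 0.474) and fell by 0.92 ± 0.19 at P15 (adjusted p = 0.001). Its P15 mutants spread from 5.79 to 7.59 around a median of 6.81, while the P15 controls lay between 7.47 and 7.81, so the groups overlapped.

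Slc7a5, the main importer of leucine and other large neutral amino acids in growing cells, had nearly the same signal in P10 mutants (11.58, 11.87 and 11.98) and P10 controls (11.65, 11.78 and 11.98). At P15 the mutants (11.61, 11.98 and 12.08) lay above every control (10.91, 11.33 and 11.51). The P10 groups covered the same range and the P15 groups were apart. The difference was 0.02 at P10 (95% interval -0.22 to 0.26) and 0.64 ± 0.12 at P15 (adjusted p = 3.07e-04). The change of the effect with age, 0.62 ± 0.17, passed the test (adjusted p = 0.0335), and in 9 of 28 fits that each left out 1 array it did not, with adjusted p up to 0.0674. Proliferation markers moved beside Slc7a5, with 1 of 9 higher at P10 and 7 of 9 higher at P15, and 0 lower at either age. Their part in the result was not tested.

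Slc7a10 encodes a carrier of small neutral amino acids that marks the surface of white fat cells. P10 mutants had 7.32, 8.03 and 9.01 against 6.70, 7.05 and 7.50 in controls, and P15 mutants 6.11, 6.48 and 7.12 against 6.45, 6.75 and 7.34. The P10 mutants were mostly above the controls with some overlap, and the P15 groups overlapped widely. It rose by 0.94 ± 0.19 at P10 (adjusted p = 0.00128), by 0.47 within slide 1 and 1.40 within slide 2, and differed by -0.25 ± 0.19 at P15 (adjusted p = 0.396). The effect fell by 1.18 ± 0.27 from P10 to P15 (adjusted p = 0.0132). Fat cell markers moved beside it, with 7 of 9 higher at P10, 0 higher and 2 lower at P15, and a mean centred level between 0.42 and 1.24 in P10 mutants against -0.21 to 0.51 in their controls. Their part in the result was not tested.

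Slc3a2 itself, the shared heavy chain, varied widely between arrays of 1 group. It was detected on 15 arrays, and its signal ran from 5.04 to 8.42 in P10 controls of slides 1 and 2, against 6.58 to 8.09 in P10 mutants. Within slide 1 the mutants were higher by 2.51 and within slide 2 they were lower by 0.46, and the difference over both, 1.03 ± 0.49, was not called (adjusted p = 0.145). The remaining light chain tested, Slc7a7, was detected on 9 arrays and on 0 of the 12 P15 arrays, and was not called.

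Of the other amino acid transporters, Slc1a4, a carrier of alanine, serine and cysteine, and Slc43a2, a carrier of large neutral amino acids, were lower at P15 by 0.37 ± 0.12 (adjusted p = 0.0294) and 0.63 ± 0.19 (adjusted p = 0.0196). These 2 were picked out after their values were seen, to complete the count, and Slc43a2 was above background on 4 of 6 controls and 1 of 6 mutants. The sodium-coupled neutral amino acid transporter gene Slc38a2 had 2 tested probes that passed the test at P10 in opposite directions, at -0.64 and 0.53, so the sixth lower count at P10 rests on its brighter probe alone and no direction is given for the gene.

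Ion and bicarbonate transporters (16 tested) included 3 lower genes at P10 (18.8%, beside 18.7% of all genes called) and 4 at P15 (25%, beside 19.6%) and 0 higher. Slc4a1 encodes the anion exchanger of the red cell membrane, also known as band 3. Its signal was 9.51, 9.78 and 10.13 in P10 mutants against 10.58, 10.79 and 11.14 in controls, and 9.91, 10.45 and 10.65 in P15 mutants against 11.72, 11.92 and 12.07. Mutants and controls were apart at both ages, with the wider gap at P15. It fell by 1.05 ± 0.13 (adjusted p = 3.99e-06) and 1.49 ± 0.13 (adjusted p = 4.75e-09). Of 6 red cell markers on the array 2 were tested, Hba-a1 and Alas2, and neither was called for genotype at either age. Hba-a1 differed by 0.39 at P10 (adjusted p = 0.0648) and by 0.22 at P15, and Alas2 by 0.02 and -0.10. Both were lower in P15 than in P10 controls, by 1.53 and 0.78, where Slc4a1 was higher by 0.74 ± 0.15 (adjusted p = 7.99e-04). The part of red cells in the Slc4a1 values was not tested.

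Slc26a4 encodes pendrin, an exchanger of chloride, iodide and bicarbonate. It was detected on 6 of 6 P15 controls (6.66, 7.38 and 7.57) and 2 of 6 P15 mutants (5.01, 5.91 and 6.52). All P15 mutants lay below all P15 controls, with a fall of 1.40 ± 0.21 (adjusted p = 2.65e-05), 2.64-fold. At P10 it was above background on 1 of 6 controls of slides 1 and 2 and on 0 of 6 mutants, so the size of the fall is not bounded. The P10 call (adjusted p = 0.0497) held in 12 of 28 fits that each left out 1 array. Slc24a3, a sodium, calcium and potassium exchanger, fell at P15 by 0.56 ± 0.10 (adjusted p = 3.44e-04) with no overlap of groups. The sodium and chloride cotransporter genes Slc12a2 and Slc12a3 were lower at P15 (by 0.47) and at P10 (by 0.57) respectively, and are named here after their values were seen.

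Vitamin transporters held both the largest fall at P10 and the largest rise that recurred at both ages. Of 12 tested genes for vitamin and choline transport, 2 were lower and 1 higher at P10, and 3 were lower and 2 higher at P15. These were 25% and 41.7% of the class, beside 18.7% and 19.6% of all genes. Slc23a3 belongs by sequence to the ascorbate transporter family, and its own substrate is less settled. P10 mutants had 7.88, 8.24 and 8.49 against 9.70, 9.95 and 10.48 in controls, and P15 mutants 9.16, 9.58 and 10.31 against 10.20, 10.35 and 10.69. The groups were far apart at P10, and at P15 the highest mutant reached the control range. It fell by 1.80 ± 0.16 at P10 (3.49-fold, adjusted p = 2.09e-08) and by 0.76 ± 0.16 at P15 (1.69-fold, adjusted p = 0.0012). The effect was smaller at P15 by 1.04 ± 0.23 (adjusted p = 0.00859). In controls Slc23a3 did not pass the test for age (0.38 ± 0.18, adjusted p = 0.124).

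Slc23a2, a sodium-coupled ascorbate transporter, went the other way. Its signal was 7.32, 7.81 and 7.99 in P10 mutants against 6.13, 6.60 and 7.91 in controls, and 6.60, 7.19 and 8.51 in P15 mutants against 6.09, 6.45 and 6.84. Single arrays of the controls at P10 and of the mutants at P15 were far from the rest, and the groups overlapped at both ages. It rose by 0.92 ± 0.24 at P10 (adjusted p = 0.00865) and by 0.83 ± 0.24 at P15 (adjusted p = 0.0143). Within slides the P10 difference was 1.57 on slide 1 and 0.26 on slide 2, where the call was lost. Slc52a3, a riboflavin transporter, fell by 0.92 ± 0.22 (adjusted p = 0.00481) and 0.90 ± 0.22 (adjusted p = 0.00457), with overlapping groups at both ages. The reduced folate carrier gene Slc19a1 was higher at P15 by 0.37 ± 0.13 (adjusted p = 0.0468), a call that held in 8 of 28 fits that each left out 1 array.

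Sugar transporters (11 tested) were split. Slc2a4 encodes the insulin-responsive glucose transporter of muscle and fat. It was detected on 6 of 6 P10 mutants (6.19, 6.41 and 6.88) and 3 of 6 controls of slides 1 and 2 (5.05, 5.77 and 6.00), and on 0 of the 12 P15 arrays. P10 mutants lay above every P10 control, by 0.81 ± 0.17 (adjusted p = 0.00126). Markers of the tissues that carry this transporter moved in the same comparison, with 9 of 19 skeletal muscle markers and 7 of 9 fat cell markers higher at P10. In a fit that adjusts for muscle marker level, the Slc2a4 difference was 0.78 (adjusted p = 0.00858), and the part of fat cell markers was not tested. Slc50a1, a sugar transporter of the SWEET family, was higher at P10 by 0.42 ± 0.13 (adjusted p = 0.028, kept in 22 of 28 fits that each left out 1 array). The glucose transporter gene Slc2a3 was higher at P15 by 0.73 ± 0.20 (adjusted p = 0.00936), by 0.30 within slide 3 and 1.15 within slide 4. It was above background on 2 of 6 controls and 5 of 6 mutants, and the groups overlapped. Of the macrophage markers 3 of 4 were higher at P15 and 3 of 4 at P10, where Slc2a3 was not called, and their part was not tested.

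Slc2a1, which encodes the main glucose importer of keratinocytes, was not called at either age, with differences of -0.36 ± 0.16 (adjusted p = 0.134) and -0.24 ± 0.16 (adjusted p = 0.319). Its 95% intervals, -0.69 to -0.02 at P10 and -0.58 to 0.09 at P15, include falls of up to that size. Slc45a4, of the proton-coupled sugar transporter family, fell by 0.53 ± 0.16 at P10 (adjusted p = 0.0234) and by 1.02 ± 0.16 at P15 (adjusted p = 6.23e-05), and its mutant and control arrays did not overlap at either age. Its P10 call ended without P10 control replicate 6, P10 mutant replicate 1 or P10 mutant replicate 2, with adjusted p up to 0.0677. Slc45a3, of the same family, fell by 0.33 ± 0.09 at P15 (adjusted p = 0.0102).

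Organic ion and bile acid transporters (11 tested) included Slc22a5, the carnitine transporter that fatty acid oxidation depends on. At P15 its signal was 7.61, 8.16 and 8.66 in mutants against 9.48, 9.75 and 9.86 in controls. The P15 groups were apart, and the fall of 1.54 ± 0.26 (2.9-fold, adjusted p = 9.92e-05) was seen with 2 further probes of the gene, by 0.61 and 1.73. At P10 the controls were themselves spread, with 9.57, 9.63 and 9.38 on slide 1 and 7.61, 8.29 and 8.67 on slide 2, against 8.24 to 8.73 in the mutants of both slides. The P10 difference was -1.11 within slide 1 and 0.34 within slide 2, and was not called (-0.38 ± 0.26, adjusted p = 0.32). The change of the effect between ages, -1.15 ± 0.36, missed the threshold (adjusted p = 0.0764). Slc10a6, a carrier of sulfated steroids, fell by 0.63 ± 0.16 (adjusted p = 0.00573) and 0.60 ± 0.16 (adjusted p = 0.00767).

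Of 28 tested mitochondrial carrier genes, 3 were higher and 3 lower at P10, and 3 higher and 1 lower at P15, with medians of 0.07 and 0.03. The called shares were 21.4% and 14.3%, beside 18.7% and 19.6% of all genes. Slc25a28 encodes mitoferrin 2, which brings iron into mitochondria. Its signal was 10.21, 10.36 and 10.49 in P10 mutants against 9.83, 10.05 and 10.15, and 10.80, 11.02 and 11.32 in P15 mutants against 10.33, 10.41 and 10.74. Mutants lay above controls by a narrow margin at both ages. The rises were 0.34 ± 0.10 (adjusted p = 0.0203) and 0.58 ± 0.10 (adjusted p = 1.63e-04), and the P10 call was lost on leaving out either control 5 or mutant 3 of that age (adjusted p up to 0.0601). Slc25a45 was lower by 0.75 ± 0.12 (adjusted p = 1.65e-04) and 0.58 ± 0.12 (adjusted p = 0.00163), with groups apart at both ages. Slc25a10, the dicarboxylate carrier, was higher at P10 by 0.39 ± 0.14 (adjusted p = 0.0465, kept in 8 of 28 fits that each left out 1 array), and Slc25a39, a carrier needed for mitochondrial glutathione, at P15 by 0.29 ± 0.10 (adjusted p = 0.044, kept in 15 of 28).

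Of 22 tested metal transporters, 2 were higher and 2 lower at P10 (18.2%, beside 18.7% of all genes), and 0 were higher and 2 lower at P15 (9.09%, beside 19.6%). Slc39a10, a zinc importer, had 9.19, 9.34 and 9.71 in P10 mutants against 8.14, 8.51 and 9.39 in controls. One control array reached the mutant range, and the rise was 0.76 ± 0.19 (adjusted p = 0.00593), 1.12 within slide 1 and 0.40 within slide 2. At P15 the difference was 0.48 ± 0.19 (adjusted p = 0.0742), and 0.68 in a fit adjusting for muscle marker level (adjusted p = 0.0058). The zinc exporter gene Slc30a1 was not called (0.10 ± 0.11 and 0.08 ± 0.11). Slc39a11, a zinc transporter, was lower at both ages, by 0.37 ± 0.13 (adjusted p = 0.0399) and 0.39 ± 0.13 (adjusted p = 0.0281), and is named after its values were seen. Of the magnesium transporter genes, Slc41a3 was higher at P10 by 0.59 ± 0.21 (adjusted p = 0.0439, kept in 19 of 28 fits that each left out 1 array), and by 0.32 in a fit adjusting for muscle marker level (adjusted p = 0.347). Slc41a2 was lower at P15 by 0.64 ± 0.17 (adjusted p = 0.0093), where 2 of 6 mutants were above background, and neither gene's effect was called as different between the ages.

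Among the smaller classes, the equilibrative nucleoside transporter Slc29a1 fell at both ages, by 0.45 ± 0.14 at P10 (adjusted p = 0.0228) and 0.87 ± 0.14 at P15 (adjusted p = 5.03e-05). Its P15 mutants (7.31, 7.72 and 8.35) lay below the controls (8.42, 8.61 and 8.84). The P10 call ended without P10 control replicate 6, P10 mutant replicate 3 or P10 mutant replicate 6, with adjusted p up to 0.0544, and in a fit adjusting for muscle marker level the fall was 0.29 (adjusted p = 0.205). Its lysosomal relative Slc29a3 fell at P10 by 0.32 ± 0.09 (adjusted p = 0.0182, and 0.0508 without P10 mutant replicate 1) and differed by 0.00 at P15.

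Slc27a4, a fatty acid transport protein needed for the skin barrier, had 7.99, 8.23 and 8.50 in P10 mutants and 8.53, 8.89 and 9.28 in controls. The P10 groups were just apart, with a fall of 0.70 ± 0.14 (adjusted p = 6.94e-04), and the P15 difference was -0.26 ± 0.14 (adjusted p = 0.178). Slc5a8, a sodium-coupled carrier of lactate and other monocarboxylates, fell at P10 by 0.76 ± 0.15 (adjusted p = 0.00108), and the monocarboxylate transporter family member Slc16a9 rose at P15 by 0.63 ± 0.17 (adjusted p = 0.00882). The noradrenaline transporter gene Slc6a2 rose at P15 alone of the 5 neurotransmitter and osmolyte genes tested. Its P15 mutants (8.18, 8.48 and 8.64) lay above every P15 control (7.42, 7.79 and 8.07), by 0.71 ± 0.15 (adjusted p = 0.00114), and the P10 difference was 0.12 ± 0.15 (adjusted p = 0.628).

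The peptide transporter gene Slc15a1 was lower at P10 (adjusted p = 0.00483), where it was above background on 2 of 6 controls and 0 of 6 mutants, so its fall is given only as at least 1.09-fold. Slc34a2, a phosphate transporter, was lower at P15 (-0.68 ± 0.19, adjusted p = 0.0128), with 4 of 6 controls and 1 of 6 mutants above background. Slc37a3, of the sugar-phosphate exchanger family, was also lower (-0.81 ± 0.16, adjusted p = 4.79e-04), with 5 of 6 controls and 1 of 6 mutants above background, so both sizes rest on mutant signals mostly at background. Slc49a4 and Slc66a2, left without a substrate class, were lower at P15 by 1.09 ± 0.22 (adjusted p = 9.02e-04) and 0.32 ± 0.12 (adjusted p = 0.0486, kept in 5 of 28 fits that each left out 1 array). Slc16a1, Slc16a3, Slc39a4 and Slc24a5, which encode lactate, zinc and melanosome transporters, had no tested probe, the best being detected on 0, 3, 4 and 0 arrays.

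**Figure D3:**
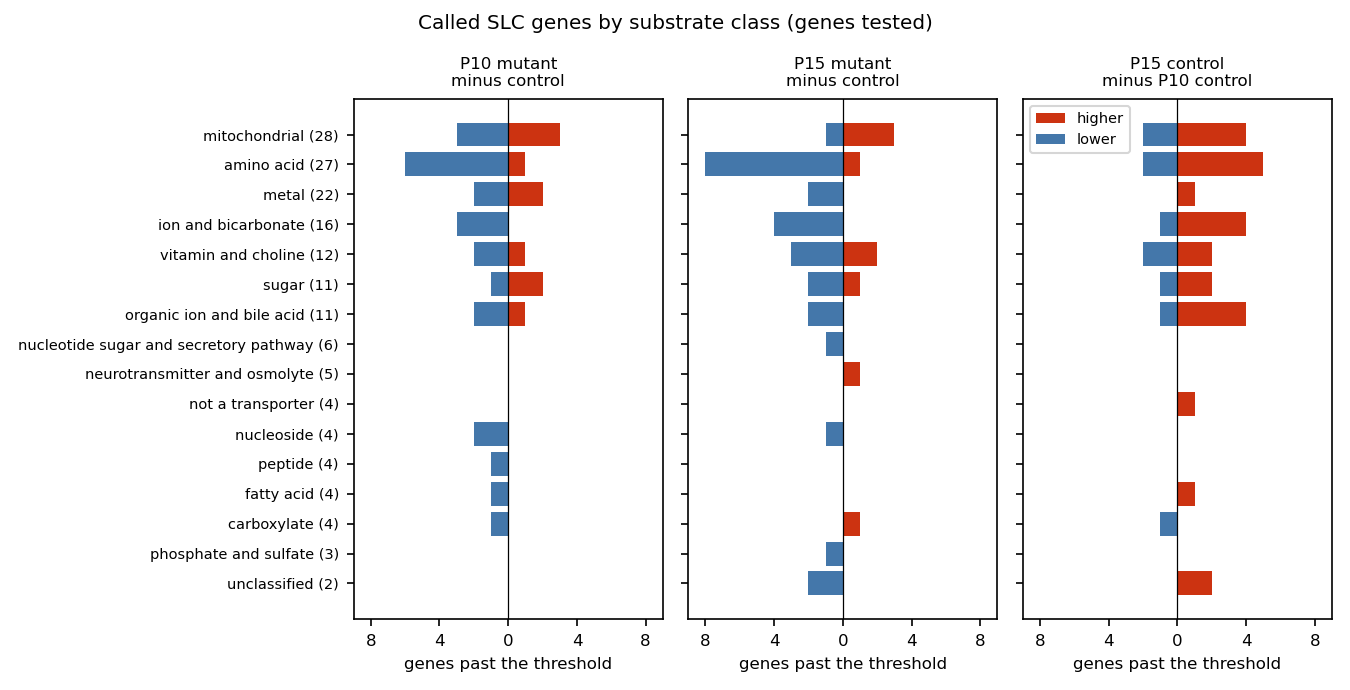
Number of SLC genes past the test in each substrate class (rows, with the genes tested in brackets), lower to the left and higher to the right, for the 2 genotype comparisons and for the age change in controls. Amino acid transporters had 6 lower genes at P10 and 8 at P15, and in the age panel most classes lean to the right, a direction that turned with median scaling of the arrays (8 higher and 26 lower).

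**Figure D4:**
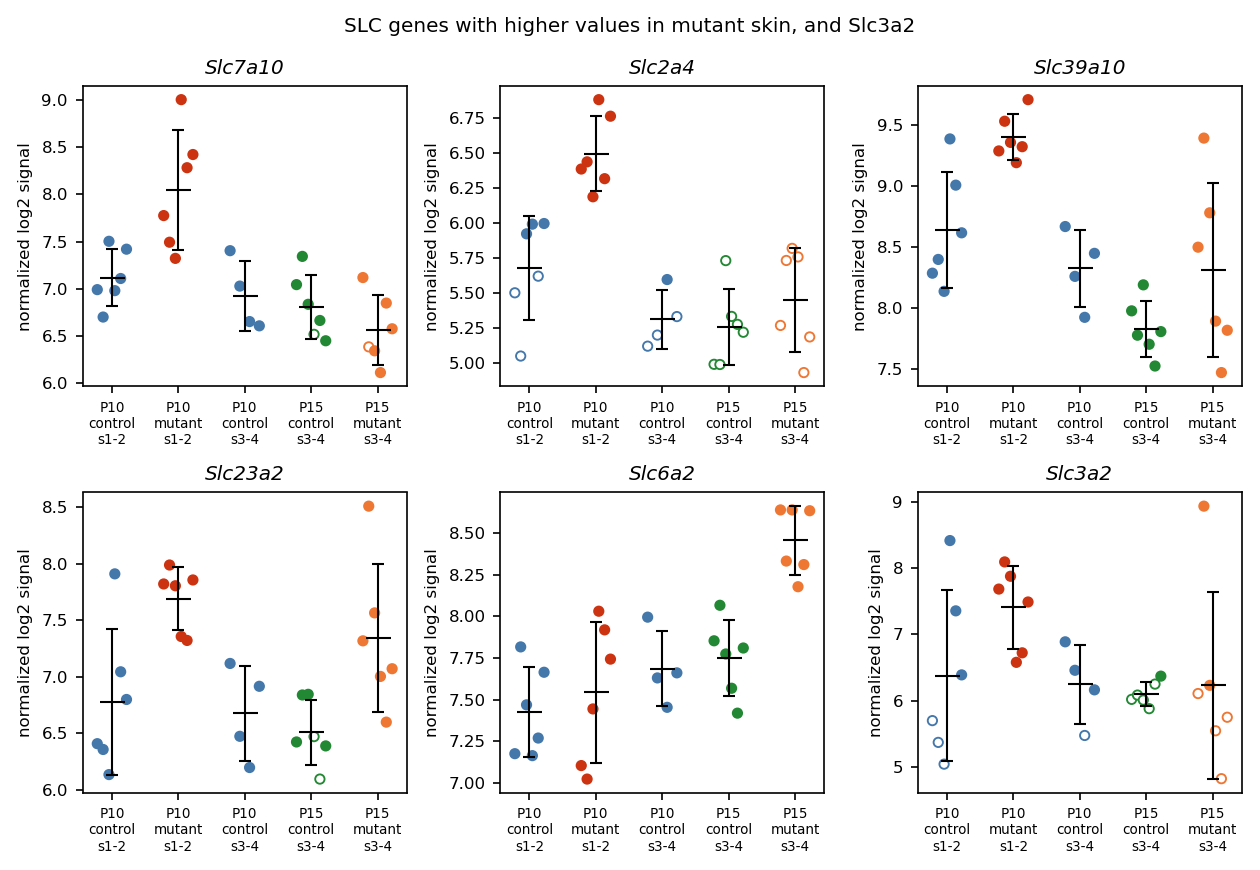
Normalized log2 signal (vertical axis) on each array for 5 SLC genes with higher values in mutants at 1 or both ages and for Slc3a2, by group and slide pair, with mean and SD. Open points were not above background. Slc2a4 was above background on every P10 mutant and on no P15 array, and 1 P15 mutant array (replicate 5) was the highest P15 array for Slc39a10, Slc23a2 and Slc3a2.

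Between P10 and P15, control skin raised 26 SLC genes and lowered 10 (22.1%), beside 21.8% of all genes, of which 11.4% were higher and 10.5% lower. This split depended on the scaling of the arrays, since median scaling moved the median of all genes by -0.24 and gave 8 higher and 26 lower SLC genes. Relative to all genes the SLC median was higher under both, 0.12 against 0.01 after quantile normalization and -0.13 against -0.23 after median scaling. The 6 P15 and 4 P10 controls of slides 3 and 4 did not overlap for 25 higher and 3 lower SLC genes, where 8.21% and 7.74% of all genes separated in these directions. The age change shares its P15 controls with the P15 genotype difference, so values of both are set side by side and no relation between them is drawn.

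The largest rise with age was that of the carnitine transporter gene Slc22a5, by 1.58 ± 0.29 (2.98-fold, adjusted p = 3.27e-04), to 9.48, 9.75 and 9.86 in P15 controls from 7.36 to 8.95 in the 4 P10 controls of the same slides. The P10 controls fell apart by slide, with 7.72 and 7.36 on slide 3 and 8.95 and 8.46 on slide 4, and the rise was 2.20 and 0.95 within these slides. P15 mutants, at a median of 8.16, lay in the range of the P10 controls. Slc25a42, the mitochondrial coenzyme A carrier, rose by 1.51 ± 0.24 (2.85-fold, adjusted p = 8.81e-05), 2.29 within slide 3 and 0.73 within slide 4. It was detected on 2 of the 4 P10 controls of these slides and on 6 of 6 P15 controls, and P15 mutants were lower than P15 controls by 0.58 ± 0.22 (adjusted p = 0.0632).

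Slc26a4 rose by 1.43 ± 0.24 (2.7-fold, adjusted p = 1.03e-04) from 2 of 4 detected P10 controls. Slc1a1 rose by 1.17 ± 0.14 (adjusted p = 1.59e-06), from between 8.61 and 9.01 in P10 controls to between 9.87 and 10.17, and the P15 mutants (8.26 to 8.97) fell within or below the P10 range. Slc7a6 rose by 1.02 ± 0.21 (adjusted p = 0.00113), Slc6a19 by 0.70 ± 0.18 (adjusted p = 0.00736) and Slc7a11 by 0.64 ± 0.22 (adjusted p = 0.0363). The Slc7a11 call held in 20 of 28 fits that each left out 1 array, and with median scaling the calls of Slc7a11 and Slc6a19 were lost. Slc19a2, a thiamine transporter, rose by 0.86 ± 0.12 (adjusted p = 1.41e-05) and Slc27a3, of the fatty acid transport protein family, by 0.83 ± 0.17 (adjusted p = 0.00127), and neither was called for genotype at P10 or P15 (smallest adjusted p = 0.314).

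Falls with age were led by Slc45a2, which encodes a melanosome transporter that melanin synthesis depends on. Its signal was 8.00, 8.08 and 8.17 (lowest, median and highest) in the 4 P10 controls of slides 3 and 4, against 6.06, 6.84 and 7.28 in P15 controls. Every P15 control lay below every P10 control, and the fall was 1.34 ± 0.23 (2.54-fold, adjusted p = 1.46e-04), with 3 further probes of the gene lower by 0.67 to 2.01. Melanocyte markers fell beside it, 7 of 8 with a median of -1.36, and 7 of 8 were higher in P15 mutants, where the Slc45a2 difference was 0.40 ± 0.20 (adjusted p = 0.172) and 2 of its 3 further probes rose by 0.82 and 1.07. The mean centred melanocyte level ran from -1.48 to -0.45 in P15 controls, from -0.54 to 0.06 in P15 mutants and from 0.19 to 0.54 in the P10 controls of the same slides. What part these markers have in the Slc45a2 values was not tested.

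Slc7a5 fell by 0.81 ± 0.13 (adjusted p = 9.99e-05), from between 11.85 and 12.31 in the P10 controls to between 10.91 and 11.51 in P15 controls, while P15 mutants stayed between 11.61 and 12.08. Slc16a9 fell by 0.70 ± 0.19 (adjusted p = 0.00858), Slc25a10 by 0.57 ± 0.15 (adjusted p = 0.00832) and Slc25a35 by 0.56 ± 0.17 (adjusted p = 0.0218, kept in 24 of 28 fits that each left out 1 array). Fibroblast, muscle and proliferation markers were lower in the same comparison, with 6 of 10, 8 of 19 and 6 of 9 called, and the part of fibroblast and proliferation markers was not tested. In a fit that adjusts for muscle marker level, the age calls of Slc16a9 (-0.55, adjusted p = 0.0667) and Slc25a35 (-0.55, adjusted p = 0.0613) were lost, and those of Slc7a5 (-0.80) and Slc25a10 (-0.58) were kept.

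**Figure D5:**
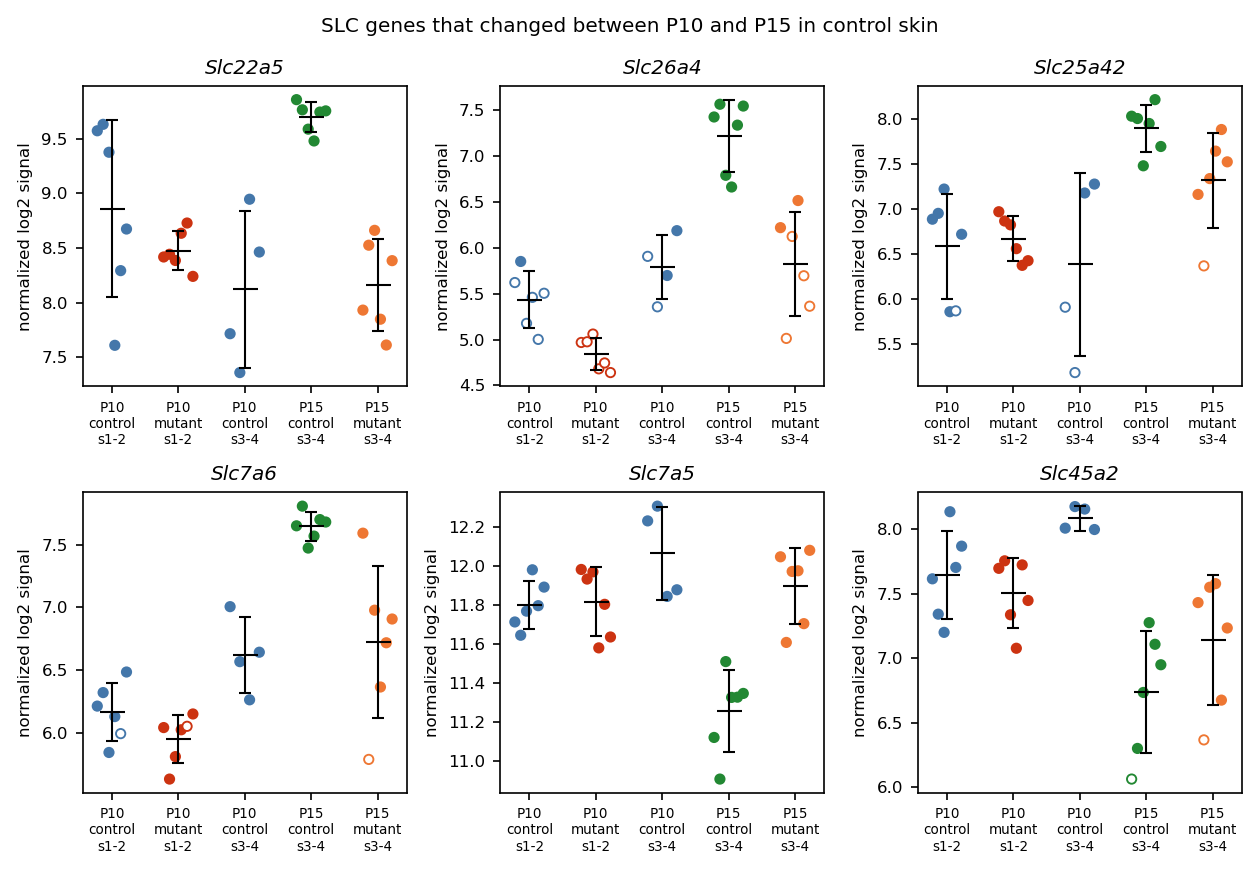
Normalized log2 signal (vertical axis) on each array for 6 SLC genes that differed between P10 and P15 controls, by group and slide pair, with mean and SD. Open points were not above background. P15 controls (s3-4) are the highest group for Slc22a5, Slc26a4, Slc25a42 and Slc7a6 and the lowest for Slc7a5 and Slc45a2, and the P10 controls (s3-4) of Slc22a5 and Slc25a42 spread widely.

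The effect of the mutation differed between P10 and P15 for 3 SLC genes (1.84%), beside 3.77% of all genes, of which 1.88% were higher at P15 and 1.89% lower. Since mutants of each age lay on their own slide pair, age and slide pair cannot be told apart in this comparison. These were Slc23a3 and Slc7a5, whose difference was more positive at P15, and Slc7a10, whose difference was more negative. For the remaining 160 genes no difference between ages passed the threshold, and for the leading shared falls the interval was wide, such as -0.74 to 0.40 for Slc7a11. For Slc4a1 the unadjusted interval, -0.82 to -0.06, lay wholly on the side of a larger fall at P15, but the adjusted p missed the threshold.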

How the data were processed

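Biotin-labelled cRNA made from total RNA of dorsal skin was read on 28 Illumina BeadChip arrays, per the labels' protocols. The deposited scanner table holds the authors' intensity of each probe, not normalized, and a detection p-value per probe and array. The submitters' processing notes name GenomeStudio without a version. The authors also deposited a processed intensity table on a linear scale, and how it was made is not given in the sources. Its values ranked the probes as the scanner table did, 25.6% were below 0, and it served as an alternative with a floor of 16 (43.9% of values were below it).

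Intensities were background-corrected with normexp from detection p-values (offset 16), quantile-normalized and put on the log2 scale with neqc in limma 3.58.1 (R 4.3.3). Probes with a detection p below 0.01 on at least 6 arrays were kept, 12834 of 25697, and each gene was represented by its tested probe with the highest mean signal. Of all probes, 23978 had 1 symbol and 1719 none. One limma fit (lmFit, eBayes) over 4 groups with slide as a term (21 residual degrees of freedom) gave all tests, with Benjamini-Hochberg adjustment over 9045 genes. Each P10 effect came from slides 1 and 2, and each P15 effect and age change from slides 3 and 4. The fit was tested on simulated data. Replicate arrays had correlations of at least 0.909 and no identical columns.

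Named genes were, per comparison, the 6 largest rises and 6 largest falls for which every array moved the called way against its slide's mean of the reference group, the 3 members with the smallest p per class, and a list of skin-related carriers. Members, classes and lists were chosen with earlier results of these data known, and 4 class entries (Slc4a1ap, Slc66a1, the other Slc66 genes and Slc49a4) were added after seeing these values. Where a group had no array above background, a fold is a bound against the lowest signal detected on each array. A marker list's level is the mean of its genes' log2 signals, each centred over arrays. Alternatives covered background correction, scaling, the detection filter, slide, array weights, a muscle score, the processed table, single slides, a replicate block and each array left out.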

Additional observations from a re-analysis of the deposited data

Results flagged for a closer look

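Among 260 combinations of a named SLC gene and a group, 11 held 1 array set apart from the other arrays of its group, where chance alone sets apart about 1 in 20. Of these, 5 lay on P15 mutant replicate 5, the array with the fewest detected probes. Its signal was 9.313 for Slc22a23, 6.268 for Slc45a4, 9.912 for Slc4a1 and 4.746 for Slc6a4, each below the other 5 mutants, and 8.934 for Slc3a2, above them.

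Among controls at P15, replicate 1 was high for Slc25a28 (10.74) and Slc29a3 (8.932), replicate 5 low for Slc37a3 (5.574), and replicate 6 low for Slc52a3 (9.401) and high for Slc9a3r2 (8.259). P10 mutant replicate 6 was high for Slc25a10 (9.663, against 9.132 to 9.209 in the other mutants).

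The mutant effect on 3 genes differed between the ages, and so between the slide pairs, in the limma fit. The P15 effect minus the P10 effect was 0.624 for Slc7a5, 1.044 for Slc23a3 and -1.181 for Slc7a10.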

How the results depend on the processing

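Of 82 calls on single named genes, 63 held with each array left out, and 3 held under every other alternative run for them (Slc1a1, Slc22a5 and Slc4a1 at P15). The replicate block, whose limit is given below, ended every named call at P10 and for the change with age, so none of these could be among the 3. At P10, Slc1a1, Slc23a3, Slc4a1, Slc7a11 and Slc6a19 were among those that held in 11 of 12 alternatives and ended only with that block. Gab1 was recomputed only without the slide term, where it fell by 1.34 at P10 and fell by 1.33 at P15. At P10, where 10 genes were higher and 24 lower, slide 1 alone gave 19 and 49, slide 2 alone 5 and 12, and array weights 24 and 58. At P15 (9 and 27), slide 3 alone gave 0 and 5, slide 4 alone 5 and 12, genes detected on all 28 arrays 5 higher, and median scaling 16 lower. For age (26 and 10), leaving out the slide term gave 56 and 17, slide 3 alone 2 and 2, slide 4 alone 8 and 1, median scaling 8 and 26, genes detected on all 28 arrays 16 and 6, and the muscle score 5 lower. For the change of the effect with age (2 and 1), array weights gave 11 and 12, genes detected on all 28 arrays 0 lower, and no slide term, slide as a random block, median scaling, an offset of 50 or every tested probe 2 lower. Single-slide fits of that change were not run, since no slide holds mutants of both ages. Fits that kept 1 slide or only genes detected on all arrays had fewer arrays or genes by construction. What caused any of these shifts, among them the higher P10 counts of slide 1 alone, was not tested. Leaving out 1 array gave 4 to 11 higher and 16 to 31 lower genes at P10, 6 to 11 and 23 to 30 at P15, 21 to 33 and 7 to 12 for age, and 1 to 7 and 1 to 3 for the change. The P10 count of higher genes was lowest without P10 control replicate 5 (4), and the count of 7 came without P15 mutant replicate 5. The labels' replicate numbers were not taken as pairs, since same-numbered arrays deviated together with correlations from -0.195 to 0.412. With the replicate block, 0 and 0 genes were called at P10, 0 and 0 for the change with age, and 3 lower for age, and Slc7a10 at P10 turned to -0.12. Replicate numbers 7 to 10 occurred among P10 controls alone, and these include every control of slide 2. That fit drew nothing from those arrays, so its losses at P10 and for the change cannot weigh the calls. Without the slide term Slc31a2 turned to -0.17 for age.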

Other observations

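Some transport genes outside the SLC series also differed between mutant and control skin. Fxyd4, whose product modulates sodium pump activity, fell by 2.13 ± 0.25 (SE) at P10 (adjusted p = 2.24e-06) and fell by 2.44 ± 0.25 at P15 (adjusted p = 9.10e-08), more than any SLC gene named above. The pump subunit gene Atp1b1 was lower by 0.56 ± 0.11 (adjusted p = 6.21e-04) and 0.43 ± 0.11 (adjusted p = 0.00523), and so was the Golgi calcium pump gene Atp2c1, by 0.72 ± 0.15 and 0.67 ± 0.15. Of 10 pump genes, 2 were higher and 3 lower at P10 (50%, beside 18.7% of all genes) and 0 and 2 at P15 (20%, beside 19.6%). The 2 higher ones, Atp1b2 (1.01) and Atp1b4 (1.44), rose beside 9 of 19 skeletal muscle markers, whose part was not tested.

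Aqp3, the glycerol and water channel of keratinocytes, was higher at P15 by 0.91 ± 0.15 (adjusted p = 8.81e-05), with 0.36 ± 0.15 at P10 (adjusted p = 0.0947). Aqp1 was higher at both ages, by 0.60 and 0.41. Aqp9 (-0.65, adjusted p = 8.34e-04) and Aqp11 (-0.56, adjusted p = 0.0313) were lower at P10 and Aqp7 (-0.68, adjusted p = 0.0174) at P15. Of 5 tested aquaporins 1 was thus higher and 2 lower at P10, and 2 higher and 1 lower at P15. That is 60% at each age, beside 18.7% and 19.6% of all genes. Among organic anion carriers, the prostaglandin transporter gene Slco2a1 fell by 0.82 and 0.55 and Slco4a1 rose by 0.61 and 0.83. Of 23 ABC transporter genes, 1 was higher and 3 lower at P10, and 4 higher and 1 lower at P15. These shares, 17.4% and 21.7%, were near those of all genes, 18.7% and 19.6%. Abcg4 fell at both ages, by 0.79 ± 0.14 (adjusted p = 2.59e-04) and 1.06 ± 0.14 (adjusted p = 4.77e-06). Pdzk1, a scaffold for transporters, fell at P15 by 1.60 ± 0.23 (adjusted p = 1.21e-05). These lists were chosen with earlier results of the data known.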
